A study of Macaca fascicularis with 3 samples.

Results

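miR-199a and miR-214 are a pair of microRNA (miRNA) hairpins known from stromal cells, and their mature arms were measured in the kidney cortex of 3 cynomolgus monkeys. The names were taken from the deposited raw count table by stem alone (miR-199a, miR-199b or miR-214, with any arm suffix or none), a rule that uses no measured value. Of 432 listed names, 5 matched: mfa-miR-199a, mfa-miR-199a-5p, mfa-miR-199a-3p, mfa-miR-214-3p and mfa-miR-214-5p, where mfa stands for the species. The rows mfa-miR-199a and mfa-miR-199a-5p held identical counts in every library and were counted once, which left 4 members among 428 distinct profiles. All 4 passed the minimum used below, a mean count of 10. The stem miR-199b matched 0 names. Mature sequences were not used here.

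The animals were naïve Macaca fascicularis between 2 and 3 years old, with 1 small RNA library each. They formed a single untreated group, so levels could be compared between miRNAs and between animals but not between conditions. Counts of listed miRNAs summed to 4305977 in animal 1, 4707892 in animal 2 and 3957188 in animal 3. Whole cortex was used, so the cell type that supplied a miRNA was not measured. In such bulk samples fewer cells of a type and less RNA per cell cannot be told apart.

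A miRNA hairpin is cut into a 5p and a 3p arm, and usually 1 arm is retained in the silencing complex, where it guides repression of messenger RNAs. In mammals a miR-199a gene and the miR-214 gene lie together on DNM3OS, a noncoding transcript antisense to an intron of DNM3, and they are made from that shared transcript under the control of TWIST1. Another miR-199a gene lies within DNM2, and miR-199b lies within DNM1. These miRNAs are typical of fibroblasts, pericytes and smooth muscle, and in rodent kidney both are known to rise in fibrosis. Caveolin-1 in fibroblasts is a described target of miR-199a-5p.

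Together the 4 members took 1.10% ± 0.105 (SD, n = 3) of the listed counts. Animal 1 gave 1.08% (95% Wilson interval 1.066 to 1.086), animal 2 gave 1.22% (1.207 to 1.227) and animal 3 gave 1.01% (1.002 to 1.022). Most of it was miR-199a: the 3p arm made up 64.9% ± 2.52 of the member counts and the 5p arm 27.5% ± 2.45. miR-214-3p added 4.39% ± 0.746 and miR-214-5p 3.12% ± 0.343.

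miR-199a-3p was the highest member in every animal. It had 30576, 38242 and 24864 counts in animals 1, 2 and 3, or 7101, 8123 and 6283 counts per 1000000 listed counts (CPM). The mean was 7169 CPM ± 922 (SD, n = 3), which ranked 30 among the distinct profiles. Animal 2 was highest and animal 3 lowest. In human cells the 3p arms of miR-199a and miR-199b have the same sequence, so this value may hold reads of more than one gene.

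For miR-199a-5p the libraries gave 12746, 14386 and 12022 counts in the order of the animals. As CPM these were 2960 (95% Wilson interval 2909 to 3012), 3056 (3006 to 3106) and 3038 (2984 to 3093), with a mean of 3018 ± 50.9 (SD, n = 3) and rank 50. The 3 animals were nearly level, and their intervals overlapped. In the deposited normalized table the row mfa-miR-199a-5p was paired with human miR-199a-5p, and the identical row mfa-miR-199a with human miR-199b-5p. The counts therefore could not be divided between miR-199a and miR-199b.

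miR-214-3p had 1648, 2644 and 2002 counts, or 383, 562 and 506 CPM, a mean of 483 ± 91.5 (SD, n = 3) and rank 101. Animal 1 was low, and the other two animals lay closer together. miR-214-5p had 1353, 2014 and 1170 counts, or 314, 428 and 296 CPM, a mean of 346 ± 71.5 and rank 124. For this arm animal 2 was high.

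**Figure D1:**
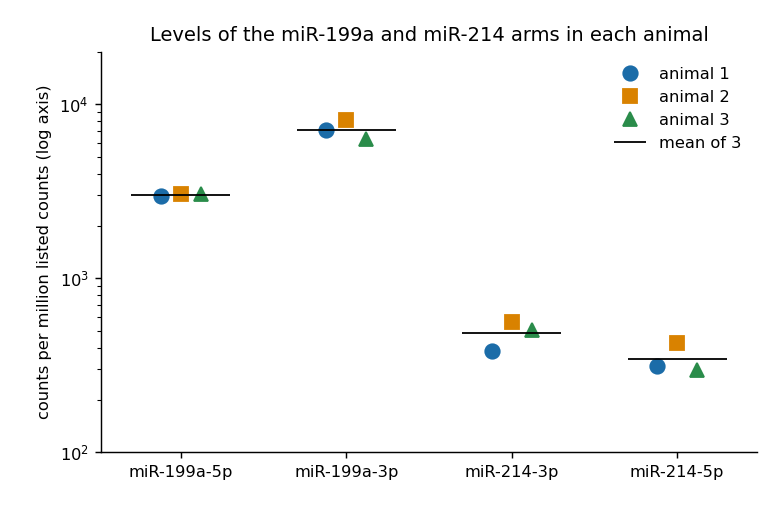
Counts per 1000000 listed counts (log axis) of the 4 members; symbols are the 3 animals and the line is their mean. The miR-199a arms lie at means of 7169 and 3018 CPM and the miR-214 arms at 483 and 346 CPM, and the symbols of miR-199a-5p nearly coincide.

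The order miR-199a-3p, miR-199a-5p, miR-214-3p, miR-214-5p held in all 3 animals. Against other miRNAs the place of each member was less sharp. miR-199a-5p lay below 43 and above 375 of 430 other names in every animal, and 12 names changed sides between animals. The numbers changing sides were 10 of 431 for miR-199a-3p, 28 for miR-214-3p and 27 for miR-214-5p. For miR-199a-5p, the nearest names by mean CPM were miR-99b-5p with 3022 ± 1231 just above and let-7d with 2887 ± 420 just below. Neither kept its side of miR-199a-5p in all 3 animals, and neither did any of its 6 nearest neighbours, 3 on each side. Of the 6 nearest neighbours of each other member, 1 kept its side for miR-199a-3p (miR-16-5p, above), 0 for miR-214-3p and 1 for miR-214-5p (miR-505-3p, below). A two-sided exact permutation test that flips the signs of the log2 ratios gave p = 0.25 for both, the smallest that 3 animals allow, and 1 after Benjamini-Hochberg adjustment over the 24 neighbour pairs.

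The balance of the 2 arms was taken within each library and so needs no scaling. The 3p arm was the more abundant arm of both hairpins in every animal, as it was for 49 of 122 hairpins with both arms listed (40.2%). For miR-199a the 3p counts were 2.40, 2.66 and 2.07 times the 5p counts in animals 1, 2 and 3, a mean log2 ratio of 1.24 ± 0.18 (SD, n = 3). For miR-214 they were 1.22, 1.31 and 1.71 times the 5p counts, a mean log2 ratio of 0.48 ± 0.26. The same exact permutation test gave p = 0.25 for each hairpin, again the smallest possible.

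In both hairpins the arms were closer to equal than in most others. Over the 108 hairpins whose arms together averaged 100 or more counts, the median absolute log2 ratio between arms was 4.89, and only 3 hairpins had arms nearer to equal than miR-214 and 9 nearer than miR-199a. The range of the ratio over the 3 animals was 0.36 log2 for miR-199a and 0.49 for miR-214, against a median of 1.19, with a smaller range in 11 and 21 of the 108 hairpins. That median includes hairpins whose minor arm had few counts and thus a larger counting error. Among the 54 hairpins with a mean count of at least 100 in each arm the median range was 0.89 log2, and 8 and 12 hairpins had a smaller range than miR-199a and miR-214.

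The small shifts in arm balance exceeded counting error. A chi-square test of the arm counts over the 3 libraries, with Benjamini-Hochberg adjustment over 122 hairpins, called 82 of them (67.2%), and both miR-199a (adjusted p = 2.22e-62) and miR-214 (adjusted p = 8.55e-11) were among these. The 3p arm of miR-199a made up 70.6% of the hairpin's counts for animal 1 (95% Wilson interval 70.1 to 71.0), 72.7% for animal 2 (72.3 to 73.0) and 67.4% for animal 3 (66.9 to 67.9). For miR-214 it made up 54.9% (53.1 to 56.7), 56.8% (55.3 to 58.2) and 63.1% (61.4 to 64.8). Animal 3 thus had the lowest 3p share of miR-199a and the highest of miR-214. Without animal 3 the call was lost for miR-214, at an adjusted p of 0.210. In that setting the test called only 41 of 122 hairpins, so the loss does not set miR-214 apart. For miR-199a the ratio is between names and may cover several genes.

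**Figure D2:**
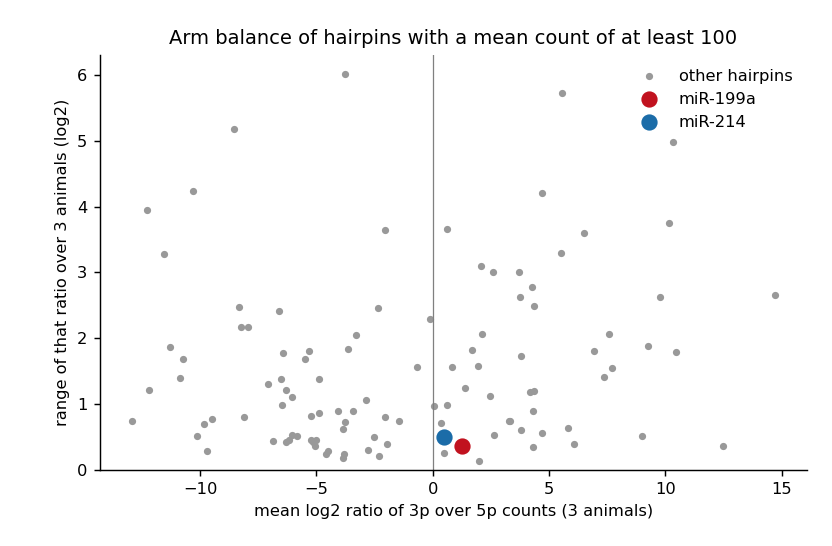
Mean log2 ratio of 3p over 5p counts (x axis) and the range of that ratio over the 3 animals (y axis, log2) for 108 hairpins. miR-199a at 1.24 and 0.36 and miR-214 at 0.48 and 0.49 lie close to the line of equal arms and near the bottom of the plot.

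Although a miR-199a gene and miR-214 share a transcript in mammals, the 2 hairpins were unequal in count. The miR-199a counts may also hold reads of its other gene and of miR-199b, so the ratio is not one within that transcript. Both arms of miR-199a together had 14.4, 11.3 and 11.6 times the counts of both arms of miR-214 in animals 1, 2 and 3. The mean log2 ratio was 3.63 ± 0.19 (SD, n = 3), with p = 0.25 in the exact permutation test. The ratio was 9.42, 7.14 and 10.3 between the 5p arms and 18.6, 14.5 and 12.4 between the 3p arms. Capture of a small RNA during library making depends on its sequence, so a ratio of counts is not a ratio of molecules.

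The spread between animals was then measured after scaling with the trimmed mean of M values (TMM), which corrects for differences in library composition. After scaling, miR-199a-5p was at 2928, 2905 and 3230 CPM in animals 1, 2 and 3, and miR-199a-3p at 7024, 7722 and 6681. The highest animal exceeded the lowest 1.11-fold for miR-199a-5p (95% interval from counting error 1.09 to 1.14) and 1.16-fold for miR-199a-3p (1.14 to 1.17). miR-214-3p, at 379, 534 and 538 CPM, spanned 1.42-fold (1.33 to 1.52). miR-214-5p, at 311, 407 and 314 CPM, spanned 1.31-fold (1.22 to 1.40).

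These spans were below the 1.71-fold median of the 391 names with a mean count of at least 10. That median includes names with few counts and thus a larger counting error. Over the 259 names with a mean count of at least 100 the median was 1.58-fold. None of the 4 members spanned more than 2-fold, as 156 of the 391 names did (39.9%). Of 388 other distinct profiles, 12 had a span no larger than that of miR-199a-5p, 22 no larger than miR-199a-3p, 74 no larger than miR-214-5p and 117 no larger than miR-214-3p. These numbers are not stable. By library totals they were 0, 63, 126 and 132 in the same order. Without animal 1 they were 71, 92, 161 and 5, without animal 2 they were 65, 0, 35 and 186, and without animal 3 they were 7, 85, 213 and 251. With all animals and a mean count of at least 100 required, they were 11, 20, 63 and 93 of 256. The coefficient of variation was 6.01% for miR-199a-5p, 7.43% for miR-199a-3p, 15.8% for miR-214-5p and 18.8% for miR-214-3p. Its median was 28.3% over the 391 names and 24.1% over the 259 with a mean count of at least 100. Counting error alone gives 0.877%, 0.572%, 2.62% and 2.21% for the same members.

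**Figure D3:**
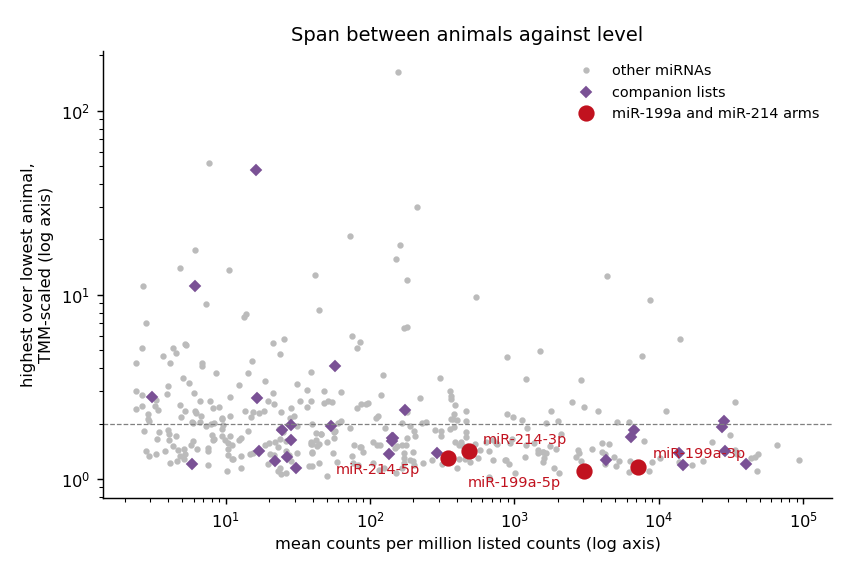
Span between animals (highest over lowest TMM-scaled value, log axis) against mean CPM (log axis) for the 388 of 391 names with a value above 0 in every animal; the dashed line marks 2-fold. The miR-199a arms, with spans of 1.11 and 1.16, lie near the lower edge and the miR-214 arms, with 1.42 and 1.31, somewhat above it; diamonds are the companion lists described in the text.

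A chi-square test of homogeneity between the 3 libraries, adjusted over all 391 names, called 315 of them (80.6%) and all 4 members, so the calls do not set the members apart. The adjusted p was 1.92e-19 for miR-199a-5p, 3.64e-75 for miR-199a-3p, 1.99e-32 for miR-214-3p and 2.30e-17 for miR-214-5p. For each member the call was lost without 1 of the animals, with the TMM factors estimated again. Without animals 1, 2 and 3 the test called 65.2%, 75.4% and 59.2% of the names tested. The adjusted p was 0.610 for miR-199a-5p without animal 3 and 0.878 for miR-199a-3p without animal 2. It was 0.820 for miR-214-3p without animal 1 and 0.143 for miR-214-5p without animal 2. Leaving out animal 2 also moved the TMM factor of animal 1 from 1.01 to 1.06. With all animals in the scaling, miR-199a-3p was at 7024 CPM in animal 1 and 6681 in animal 3. By totals their Wilson intervals, 7022 to 7181 and 6206 to 6362 CPM, did not overlap. The lost call of miR-199a-3p therefore does not show that animal 2 alone differed.

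Which animal stood apart depended on the member and on the scaling. With library totals alone miR-199a-5p spanned 1.03-fold, and 0 of 388 other profiles had so small a span. Its adjusted chi-square p on totals was 0.0294, with 81.1% of names called. On that scale the median miRNA deviated from its mean over animals by 0.01, 0.11 and -0.10 log2 in animals 1, 2 and 3, and miR-199a-5p by -0.03, 0.02 and 0.01. Relative to that median, miR-199a-5p lay at -0.04, -0.09 and 0.11 log2. Animal 2 was highest for 4 of 4 members by totals but for 2 of 4 after TMM or DESeq2 scaling, where animal 3 was highest for miR-199a-5p and miR-214-3p. miR-214-3p was lowest in animal 1, and miR-199a-3p highest in animal 2 and lowest in animal 3, under all 3 scalings.

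**Figure D4:**
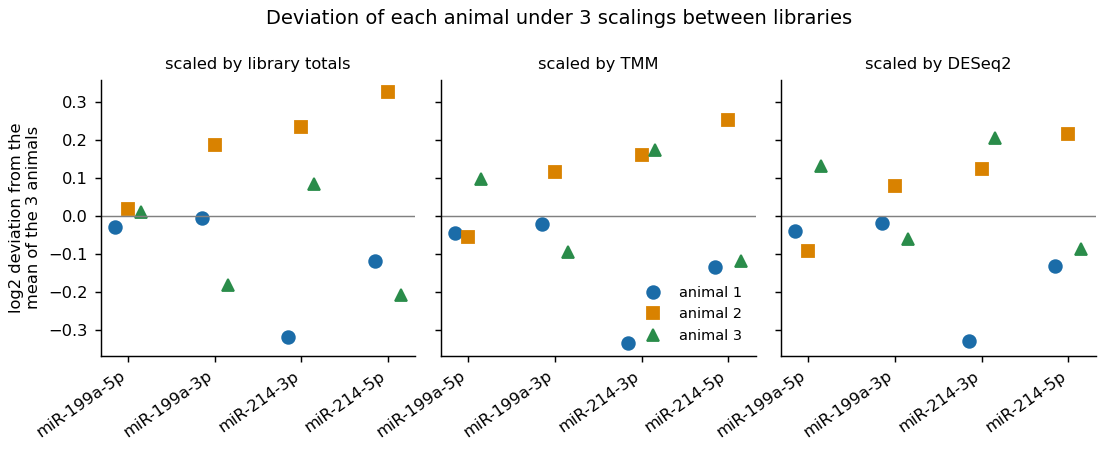
Log2 deviation of each animal from the mean of the 3 animals for the 4 members, with libraries scaled by totals, by TMM and by DESeq2 size factors (panels). Animal 1 lies lowest for miR-214-3p in each panel, whereas the order of animals for miR-199a-5p differs between totals and the other scalings.

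Likeness between profiles over the animals was described by the SD over 3 animals of the log2 ratio between a pair of miRNAs, which needs no scaling, over distinct profiles with a mean count of at least 100. The closest pair of members was miR-199a-3p with miR-214-5p, with an SD of 0.13, and the least alike were miR-199a-3p with miR-214-3p, with 0.29. The arms of 1 hairpin had an SD of 0.18 for miR-199a and 0.26 for miR-214. Ranked by likeness to miR-199a-5p among 256 others, miR-199a-3p was 51, miR-214-3p 90 and miR-214-5p 102, where the median SD was 0.35. Ranked by likeness to miR-214-5p, miR-199a-3p was 15 of 256, with a median SD of 0.46, and ranked by likeness to miR-199a-3p, miR-214-5p was 26. With 3 animals these values are a description of these libraries.

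The 5 names most like miR-199a-5p were miR-382-3p (SD 0.05), miR-101-1-5p (0.05), miR-369-5p (0.05), miR-101-3p (0.05) and miR-21-5p (0.06). miR-21-5p, which is known to rise in kidney fibrosis, had 63710, 66478 and 59560 counts, a nearly constant 2.28 log2 above miR-199a-5p. The other arm, miR-21-3p, had 430, 236 and 89 counts and an SD of 1.09. Over the 11 tested names of the fibrosis-linked list described below, this SD ran from 0.06 to 2.06, with a median of 0.22. miR-382-3p had only 125, 150 and 123 counts. The name most like miR-199a-3p was miR-204-5p, a miRNA of the renal tubule (SD 0.04), ahead of let-7a-3p, miR-429-3p, miR-338-5p and miR-511-3p. The other tubule miRNAs differed from this pattern in order or in size. After TMM scaling miR-192-5p and miR-194-5p were highest in animal 3 and lowest in animal 2. miR-204-3p had the same order of animals as miR-199a-3p but a far larger span, with 437, 529 and 19 counts. miR-215-5p, with 104, 84 and 58 counts, was highest in animal 1 and lowest in animal 3. miR-181a-5p was most like miR-214-3p (0.04), followed by miR-218-5p, miR-210-3p, miR-106a-5p and miR-505-5p. For miR-214-5p the nearest was miR-409-5p (0.01, from 104, 156 and 89 counts), followed by miR-542-5p, miR-532-5p, let-7e-3p and miR-505-3p. Counting error alone gives a coefficient of variation of 9.47% for miR-409-5p and 8.71% for miR-382-3p, more than these SDs. Names with so few counts, also miR-338-5p, miR-511-3p, miR-505-5p and miR-542-5p, can therefore rank nearest without real likeness.

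The members were next set beside lists of miRNAs known from mesenchymal cells or fibrosis. The 29 listed companions with a mean count of at least 10 had a median span of 1.66-fold, beside 1.71-fold for all 391 names. More than 2-fold was spanned by 7 of the 29, beside 39.9% of all names, and the chi-square test called 25, beside 80.6%. A span no larger than that of miR-199a-5p was found in 0 of the 29 and in 3.09% of the 388 other profiles, so nothing is read from that 0. Compared with miR-199a-5p, 9 companions were higher and 20 lower in every animal. With 3 animals the exact permutation test cannot go below p = 0.25, so these orders could not be tested at 0.05.

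miR-143 and miR-145, transcribed together and typical of smooth muscle and pericytes, gave 4 names, all called. miR-145-5p had 19791, 26540 and 37991 CPM in animals 1, 2 and 3, and miR-143-3p had 8069, 4979 and 6114. The first was highest in animal 3 and the other in animal 1, whereas miR-199a-5p was near level by CPM. After TMM scaling miR-199a-5p was also highest in animal 3, as was miR-145-5p. Their spans were 1.11-fold and 2.06-fold. miR-143-3p remained highest in animal 1 and spanned 1.69-fold. The minor arm miR-143-5p had 9, 5 and 179 counts, whereas no member arm spanned more than 1.47-fold by CPM. miR-125b-5p and miR-100-5p, broadly expressed in mesenchymal cells, spanned 1.92-fold and 1.85-fold with animal 3 highest, and 3 of the 4 names of that list were called.

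Of the fibrosis-linked list 10 of 11 tested names were called. miR-29b-3p, whose known targets include collagen messenger RNAs, had 36390, 42590 and 40808 CPM and spanned 1.21-fold, and miR-21-5p spanned 1.19-fold. miR-192-5p spanned 1.27-fold at a mean of 4292 CPM ± 425. miR-132-3p spanned 2.37-fold and miR-21-3p 4.13-fold. The DLK1-DIO3 list holds some of the miRNAs of an imprinted cluster expressed in mesenchymal cells. Its 10 tested names all lay below miR-199a-5p and below both miR-214 arms by mean CPM, from 3.07 to 143 CPM, and 8 were called. Other miRNAs of the cluster were not on the list, so this order does not describe the cluster as a whole.

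**Figure D5:**
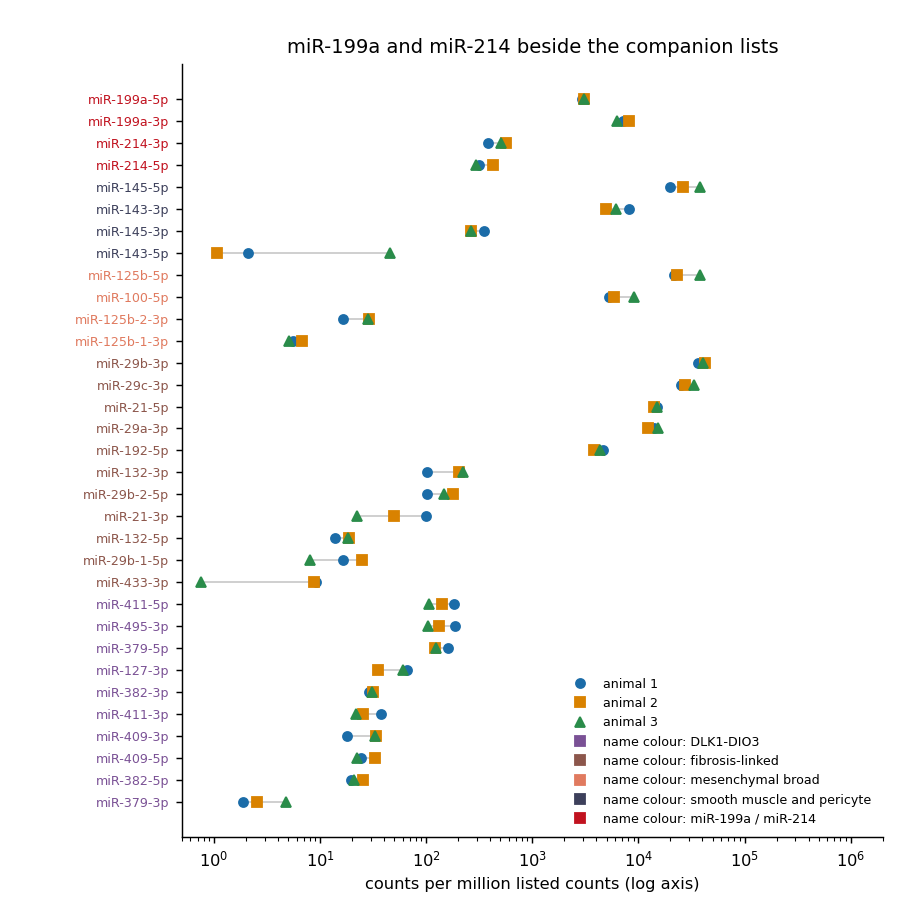
Counts per 1000000 listed counts (log axis) in each animal for the 4 members and the 29 companions, with name colours giving the list. The symbols of miR-199a-5p lie together at about 3018 CPM, while those of miR-145-5p, miR-132-3p and miR-143-5p are spread.

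Summed levels of the cell type lists varied as follows over animals 1, 2 and 3. The smooth muscle list had 28215, 31785 and 44412 CPM from 4 of 4 names, and miR-126 of endothelium had 49842, 39923 and 40779 CPM. The renal tubule list had 57055, 61982 and 53073 CPM, the other epithelial list 20903, 20653 and 16281, the erythroid list 5025, 4374 and 5765 and the leucocyte list 1621, 1727 and 1518. Liver, neuron and muscle lists stayed at or below 8.82, 131 and 562 CPM. By CPM, miR-199a-3p, miR-214-5p and the renal tubule, leucocyte and neuron lists were highest in animal 2 and lowest in animal 3, as was the median miRNA. Single names of these lists went otherwise. For example, miR-192-5p, miR-194-5p, miR-150-5p and miR-124a-3p were lowest in animal 2, and most of the renal tubule sum was miR-204-5p, with 47353, 53577 and 43444 CPM. The part of tissue composition in the spread of the members was not tested.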

How the data were processed

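Small RNA libraries of kidney cortex, 1 from each of 3 monkeys, were analysed from the deposited tables. The deposited raw values are counts of reads that matched M. fascicularis miRNAs with 0 mismatches, for miRNAs with 15 reads or more, per the file headers. The aligner, reference release, trimming and handling of reads matching several names are not given in the sources used here. Near-identical miRNAs can therefore share reads. The authors' second table holds a normalized signal made with edgeR, per the file headers. It was used here for the paired human names and equals the count times 0.989, 0.951 and 1.06 in animals 1, 2 and 3. Columns of per-sample values beyond these numbered 0.

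CPM was computed against the sum of listed counts in a library, where 3 counts correspond to 0.697, 0.637 and 0.758 CPM. The TMM factors were 1.01, 1.05 and 0.940 (edgeR 4.0.16, R 4.3.3), and DESeq2 1.42.0 gave alternative size factors. Chi-square tests, with Benjamini-Hochberg adjustment and a threshold of 0.05, compare libraries and not conditions. They were checked on simulated counts that held counting error and preset changes only. The check therefore does not cover other variation between libraries. edgeR's quasi-likelihood test needs a comparison of groups and was not applicable. Intervals cover counting error only, since each animal had 1 library. No molecular identifiers are described, so reads copied from 1 molecule could not be told apart and counting error may be understated. Library and animal cannot be told apart.

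Named miRNAs are the members, the 3 nearest above and below by mean CPM, the 5 most alike, and companions with a mean count of at least 10. Companion lists were smooth muscle and pericyte (miR-143, miR-145), DLK1-DIO3 (miR-127, miR-379, miR-382, miR-409, miR-411, miR-495), mesenchymal (miR-100, miR-125b), fibrosis-linked (miR-21, miR-29a, miR-29b, miR-29c, miR-192, miR-132, miR-433) and miR-3120, antisense to miR-214, which matched 0 names. The members and lists were chosen with earlier results of these data known, and the tests of arm balance, the ratio of miR-199a to miR-214 and the alternatives for members other than miR-199a-5p were added after the data were seen.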

Additional observations from a re-analysis of the deposited data

How the results depend on the processing

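Of 262 recalculated values, 227 kept their direction and side of the threshold or moved within the spread. A further 30 moved further, 5 lost their call and none reversed. Numbers of miRNAs or hairpins were compared as plain numbers, whatever total they were drawn from. Many of the 227 were fixed beforehand, as set out below, so their share does not measure robustness. Only the log2 ratios have a direction to reverse, and each had the same sign in all 3 animals. Neither leaving out 1 animal nor adding 0.5 to each count could therefore reverse their means. For those settings the kept direction was fixed beforehand and is not a check. Scaling by library totals gave spans of 1.03 (miR-199a-5p), 1.29 (miR-199a-3p) and 1.45 (miR-214-5p), with 0, 63 and 126 of 388 other profiles having no larger span. DESeq2 size factors gave 1.17 and 1.10 for the miR-199a arms, with 24 and 12 such profiles. Leaving out 1 animal gave spans from 1.01 to 1.16 (miR-199a-5p), 1.002 to 1.16 (miR-199a-3p), 1.01 to 1.496 (miR-214-3p) and 1.07 to 1.31 (miR-214-5p). A span over fewer animals is narrower by construction apart from the rescaling. Profiles with no larger span then numbered from 7 to 71, 0 to 92, 5 to 251 and 35 to 213. The adjusted chi-square p ranged from 1.32e-31 to 0.610, from 4.65e-70 to 0.878, from 1.16e-33 to 0.820 and from 5.92e-14 to 0.143 for these members in the same order. For the arm counts of miR-214 it ranged from 2.19e-10 to 0.210, and the hairpins called numbered from 41 (without animal 3) to 72. Requiring 100 counts in each arm left 12 of 54 hairpins with a smaller range of the arm ratio than miR-214, in place of 21 of 108. That number fell with the total, and the share was similar. Over all settings the number of miRNAs called was 237 to 328. Mean CPM moved by less than 1 SD in every setting run. For the settings that left out 1 of 3 animals this holds by arithmetic. At 1170 or more counts per member and library, depth limits these results less than the number of animals. No paired analysis was possible because all libraries belong to 1 group.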
